A study of Sus scrofa with 14 samples.

Results

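The genes described here encode the contractile machinery of smooth muscle and of myofibroblasts: ACTA2, MYLK, CNN1, DES and TAGLN. Their probes were taken as all non-control array probes whose RefSeq accession is a transcript of one of these pig genes, which gave 11 of the 43603 probes on the array. ACTA2 (NM_001164650) had 4 probes, DES (NM_001001535) 4, CNN1 (NM_213878) 2 and MYLK (XM_001929078) 1. TAGLN had 0 probes under this rule and is not analysed here. Meniscus RNA came from 14 male Wuzhishan pigs, labelled as 6 to 7 months old and weighing 15 to 18 kg, with 1 array per animal. In the 7 OA (osteoarthritis) animals tissue was collected 24 weeks after an operation on the anterior cruciate ligament, and in the 7 sham animals 24 weeks after a sham operation. The labels do not say what was done to the ligament or which zone of the meniscus was dissected.

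Smooth muscle cells lie in the walls of the vessels that enter the outer rim of the meniscus. Myofibroblasts are matrix-producing cells that take on contractile filaments, typically during repair and scarring, and cells holding alpha smooth muscle actin are also known from the meniscus itself. Contraction in these cells is switched on when calcium and calmodulin activate myosin light chain kinase, which phosphorylates the light chain of myosin so that it pulls on actin filaments. Serum response factor with its partner myocardin, and transforming growth factor beta, are the best known inducers of these genes. In a bulk sample, fewer cells of a type and less RNA per cell cannot be told apart.

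None of the contractile genes passed the test of a difference between OA and sham. Levels are given as log2 of the probe's processed signal minus the 75th percentile of its array, so that 0 is the 75th percentile, and a change is OA minus sham on that log2 scale, with 7 arrays per group throughout. Of the 10 probes bright enough to be tested, 0 passed an adjusted p of 0.05 (limma, Benjamini-Hochberg over 38818 probes) and 0 had an unadjusted p under 0.05; over all tested probes the shares were 3.73% and 19.6%. OA and sham arrays overlapped for each of these 10 probes. So they did for most probes of the array, since only 1.73% of all tested probes had groups that did not overlap. The changes were negative for 7 and positive for 3 of them, with a median of -0.22 against -0.05 over all tested probes. With normexp background correction in place of the processed signal, 3 of the probes passed. They were ACTA2 probe 3 at -0.64 (adjusted p = 0.037), DES probe 2 at 0.71 (adjusted p = 0.0019) and DES probe 3 at 0.70 (adjusted p = 0.0021), the last with its sign turned. Under that setting 47.3% of all tested probes passed, 17573 higher and 796 lower, and the median of all tested probes moved to 0.33. The count of 3 of 10 is not above that pooled share. Since the share is mostly of higher probes, it is no like background for the lower ACTA2 probe 3. The other ACTA2 probes did not pass under that setting (limma adjusted p from 0.08 to 0.24).

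The arrays differed in ways that touch every value below. No slide and no scan day held both groups, so group and slide cannot be told apart. The 75th percentile of the raw signal was 418 to 622 on the sham arrays and 156 to 492 on the OA arrays, and 89.7% to 95.2% of probes against 67.9% to 89.3% were well above background. OA 2 to OA 5 shared slide 4 and lay, with OA 1 on slide 3, between 156 and 250.3, while OA 6 and OA 7 on slide 5 gave 404 and 492. The 4 tested markers of fibrochondrocytes, the aggrecan gene ACAN, the link protein gene HAPLN1, the decorin gene DCN and the transcription factor gene SOX9, were well above background on all 14 arrays. So were 27747 of the 38818 tested probes, so this alone does not identify the tissue.

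**Figure D1:**
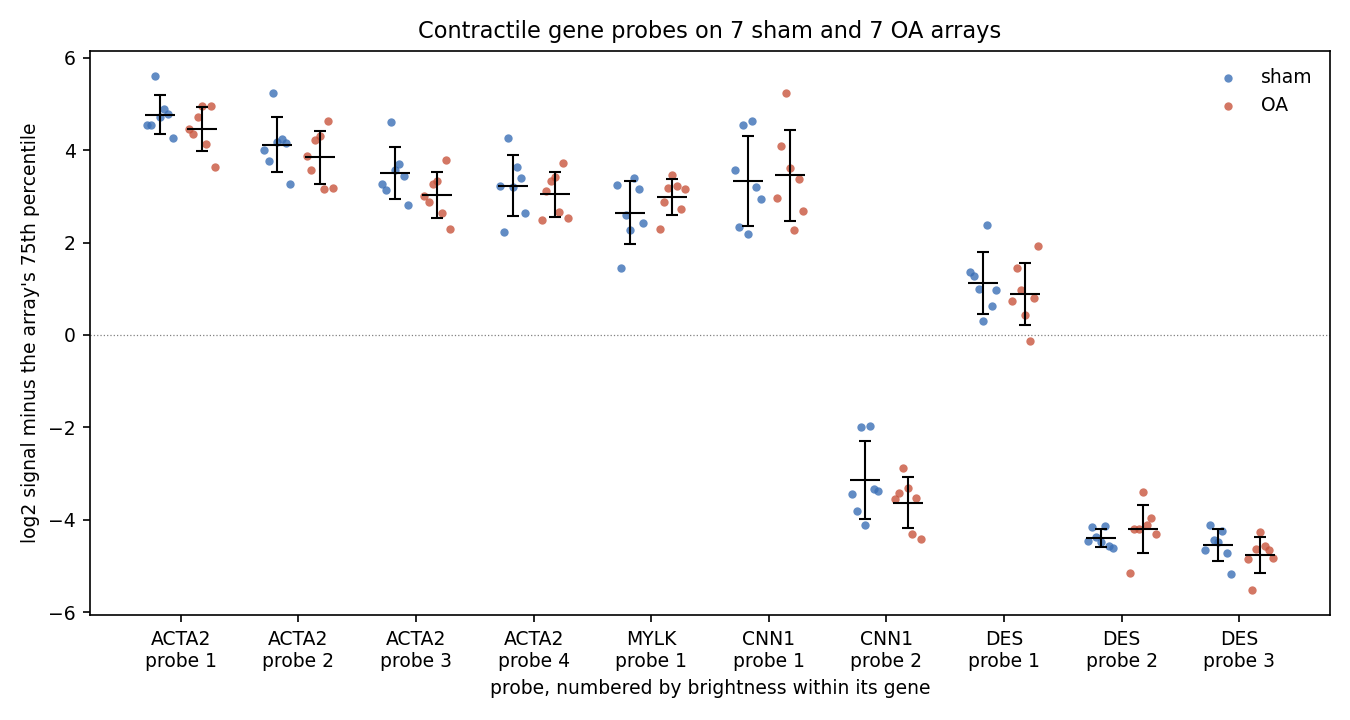
Level of each tested probe (y axis, log2 signal minus the array's 75th percentile) on the 7 sham arrays (blue) and 7 OA arrays (red); bars give the mean and SD. Sham and OA points overlap for all 10 probes, and the brightest CNN1 probe has the widest spread, with an SD of 0.97 in sham and 0.99 in OA.

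ACTA2 encodes alpha smooth muscle actin, the thin filament protein by which myofibroblasts are usually recognised. It was well above background on every array with all of its probes. Before scaling, its brightest probe (A_72_P627171) gave signals of 9142 to 22657 on the sham arrays and of 4118 to 12509 on the OA arrays, which were dimmer as a whole. After scaling the sham arrays had a level of 4.27 at the lowest, 4.71 at the median and 5.59 at the highest. The OA arrays had 3.63, 4.46 and 4.95. The OA range thus began and ended below the sham range, but only OA 7 and OA 5 (4.12) lay below every sham array, and sham 3 alone lay above every OA array.

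The change of this ACTA2 probe was -0.31 ± 0.24 (SE over 7 arrays a group; adjusted p from limma 0.50), a 0.81-fold level with a 95% interval of 0.57 to 1.14. The other ACTA2 probes changed by -0.27 ± 0.29 (probe 2, A_72_P678849, adjusted p = 0.65), -0.47 ± 0.27 (probe 3, A_72_P521843, adjusted p = 0.35) and -0.19 ± 0.29 (probe 4, A_72_P529904, adjusted p = 0.76). All 4 values were negative, but the probes measure the same 14 RNA samples and are not independent. The lower limit of the interval for the brightest probe leaves room for a decrease of up to 0.81 on the log2 scale, and the upper limit for an increase of 0.19.

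The ACTA2 probes followed each other closely from animal to animal. Within sham the Pearson r of the 6 probe pairs was 0.86 to 0.99 and within OA 0.82 to 0.97 (n = 7 each), with exact permutation p adjusted over 20 probe pairs and groups of at most 0.025 and 0.042. Spearman's rank correlation was 0.82 to 1.0 in sham and 0.75 to 1.0 in OA, with adjusted exact p of at most 0.057 and 0.083, and without the 2 arrays farthest from the median r was 0.74 to 0.94 and 0.71 to 0.98. Sham 3 was the highest sham array on all 4 probes, and OA 6 the highest OA array on all 4, at levels of 5.59 and 4.95 on the brightest. The differences between animals of one group were therefore read alike by separate probes. The slides within OA and within sham hold at most 4 arrays, too few for a correlation within a slide.

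The genes whose pattern was most like that of ACTA2 were other actins. Likeness was the Pearson r over the 14 arrays after each group's mean was removed, against the brightest probe of each of 2257 other named genes; since genes were ranked by it, it is given as a description. The highest were ACTA1, skeletal muscle actin (r = 0.97), ACTC1, cardiac muscle actin (r = 0.89), and CDC20, an activator of the anaphase-promoting complex (r = 0.83). The median over all genes was 0.04 and the 99th percentile 0.66. The muscle actin genes are close relatives with very similar coding sequence. Probe sequences were not used here, so whether the ACTA2, ACTA1 and ACTC1 probes each read a single transcript was not tested, and the values for all 3 genes are uncertain to that extent.

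The probes assigned to ACTA1 fell into unlike sets. Of its 16 tested probes 5 had an r over 0.8 with the brightest ACTA2 probe, and these 5 were also its brightest, at mean signals of 2195 to 5375 (arbitrary units of the scanner). Another 10 had an r under 0.5, down to -0.12, at mean signals of 8.01 to 644. The remaining probe stood at 0.75 with a signal of 601. For ACTC1 the brightest of 3 probes had an r of 0.89 and the others 0.61 and 0.50. None of these 19 probes was called: those that followed ACTA2 with an r over 0.8 changed by -0.65 to -0.38 (limma adjusted p from 0.21 to 0.49), and the value nearest to the threshold was that of the dimmest ACTA1 probe, -1.10 ± 0.35 (adjusted p = 0.088).

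**Figure D2:**
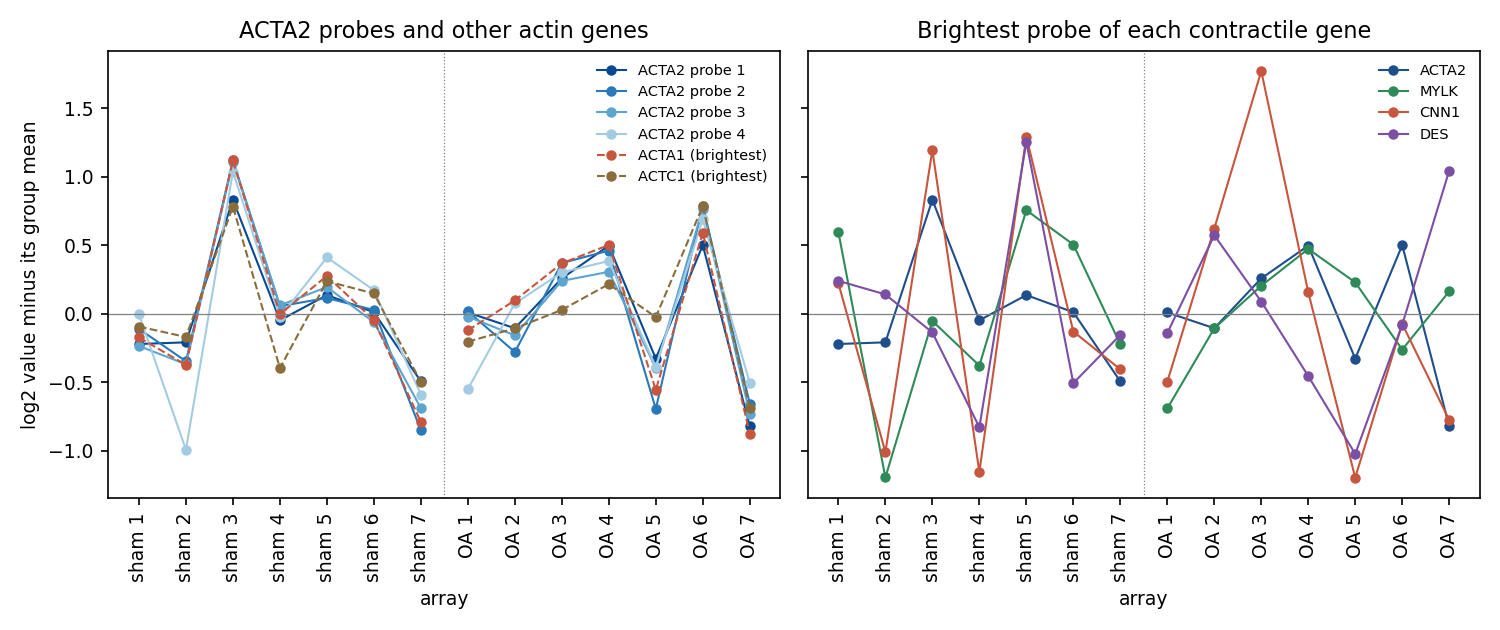
Log2 value minus its group mean (y axis) on each array (x axis); lines only join the values of one probe. Left, the 4 ACTA2 probes run together with the brightest ACTA1 probe (r = 0.97) and ACTC1 probe (r = 0.89); right, of the brightest probes sham 5 is the highest sham array for MYLK, CNN1 and DES and sham 3 for ACTA2, while in OA the 4 genes are each highest on a different array.

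CNN1 encodes calponin 1, which binds actin filaments and slows the myosin motor. It had the widest spread of the contractile genes, with an SD of its brightest probe (A_72_P035636) at the 96.3 percentile of all tested probes within sham and at the 91.8 percentile within OA. That probe had a level of 2.18 at the lowest, 3.21 at the median and 4.63 at the highest in sham, and 2.26, 3.38 and 5.23 in OA. The groups covered nearly the same range: sham 5 and sham 3 were highest in sham at 4.63 and 4.54, and OA 3 stood above all other arrays at 5.23.

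The change of this CNN1 probe was 0.12 ± 0.46 (SE; limma adjusted p = 0.92), a 1.08-fold level with a 95% interval of 0.55 to 2.14, the widest of the contractile genes. Its sign rested on single arrays, since it became -0.18 without OA 3, -0.05 without sham 2, -0.08 without sham 4 and -0.33 without slide 4. The mean level was 3.80 on the 4 arrays of slide 4 and 3.03 on the 2 of slide 5. These values are all smaller than the spread between animals.

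The dimmer CNN1 probe (A_72_P441684), well above background on all 14 arrays at a mean signal of 35.2, changed by -0.48 ± 0.35 (adjusted p = 0.47). It followed the brightest probe across animals, with r = 0.96 in sham and 0.89 in OA (exact permutation adjusted p = 0.0062 and 0.013, n = 7; Spearman's rank correlation 0.89 and 0.93; r without the 2 arrays farthest from the median 0.87 and 0.77). The difference between the probes nonetheless stood at 6.49 ± 0.28 in sham and 7.09 ± 0.55 in OA (SD, n = 7), a gap of 0.60 with an exact permutation p of 0.020 (two-sided over 3432 splits) and 0.10 after adjustment over 10 probe pairs. The probes of CNN1 thus agreed on which animals were high. Their estimated changes had opposite signs, but neither change passed the test, nor did the gap between the probes after adjustment.

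Genes with a pattern like that of CNN1 were RTN2, a reticulon (r = 0.84), RGL2, an activator of Ral GTPases (r = 0.83), and MYH2, a fast skeletal myosin heavy chain (r = 0.82), against a 99th percentile of 0.71. None of them was called (limma adjusted p from 0.59 to 0.82). The 17 tested skeletal muscle markers, ACTA1 among them, had mean levels of -2.82 to -2.23 on the sham arrays and -3.07 to -2.26 on the OA arrays. Of these markers 1 was called higher, the slow troponin TNNI1 at 0.71 ± 0.18 (adjusted p = 0.041), and 0 lower, beside 3.23% called of 2258 named genes. The changes were positive for 6 of the 17, with a median of -0.16. MYH7, with the next smallest p, stood at 0.97 ± 0.29 (limma adjusted p = 0.075) with 5 of its 7 probes positive. Both genes were read from dim probes, at mean signals of 32.8 for TNNI1, its only tested probe, and 34.1 for MYH7. These probes were well above background on every array. Among the markers not well above background on every array were TNNC2, on 0 of 7 OA arrays, and TNNC1, on 2 of 7. The part of these markers in the spread of CNN1 was not tested.

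MYLK encodes myosin light chain kinase, the enzyme that starts smooth muscle contraction; shorter and longer forms from the same gene serve other cells too, and 1 probe cannot separate them. Its probe (A_72_P505402) was well above background on all 14 arrays, with processed signals of 1108 to 6194 before scaling. The sham arrays had a level of 1.45 at the lowest, 2.59 at the median and 3.40 at the highest, and the OA arrays 2.29, 3.15 and 3.46. The upper ends of the groups were close, whereas the lower end of sham was set by sham 2 at 1.45, with sham 4 next at 2.27. In OA, 6 of 7 arrays lay above the sham mean of 2.65 and OA 1 below it.

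The change of MYLK was 0.34 ± 0.28 (SE; limma adjusted p = 0.53), a 1.27-fold level with a 95% interval of 0.84 to 1.91. It came to 0.14 without sham 2 and 0.08 without slide 4, whose 4 arrays averaged 3.19 against 2.94 on slide 5 and 2.39 and 2.99 on the sham slides. The genes most like MYLK in pattern were SLPI, a secreted protease inhibitor (r = 0.82), KCNAB1, a potassium channel subunit (r = 0.78), and ACSL4, a fatty acid ligase (r = 0.77), against a 99th percentile of 0.71. In that order r was 0.88, 0.86 and 0.80 within sham, and 0.66, 0.42 and 0.69 within OA.

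DES encodes desmin, the intermediate filament of smooth, skeletal and heart muscle cells. Its brightest probe (A_72_P177466) had a level of 0.29 at the lowest, 0.99 at the median and 2.38 at the highest in sham, and -0.14, 0.81 and 1.93 in OA. Sham 5 and OA 7 were the highest of their groups, and OA 5 alone lay below every sham array. The change was -0.24 ± 0.33 (SE; limma adjusted p = 0.73), a 0.85-fold level with a 95% interval of 0.52 to 1.37. Without slide 4 the change was 0.035, and without slides 3 and 4 it was 0.24, so its sign depended on the OA arrays used.

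The other DES probes were dim, and their correlations with the brightest one were negative in OA and positive in sham. Probe 2 (A_72_P601893, mean signal 18.8) changed by 0.20 ± 0.21 and was well above background on 6 of 7 OA arrays; probe 3 (A_72_P684426, mean signal 14.7) changed by -0.21 ± 0.21 and was so on 4 of 7. Neither was called (adjusted p = 0.64 and 0.62). Within OA the r of the 3 DES probe pairs ran from -0.58 to 0.45, and within sham from 0.39 to 0.89 (n = 7). The pairs with the brightest probe did not pass an exact permutation test adjusted over 20 pairs and groups (adjusted p = 0.073 and 0.39 in sham, 0.67 and 0.19 in OA), and the highest sham value was that of probes 2 and 3 (adjusted p = 0.0079). Probe 4 (A_72_P350098) was not well above background on any of the 14 arrays and was not tested; it gave signals of 1.21 to 5.14 in sham and 1.51 to 3.38 in OA, and no fold is given for it.

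For DES the most similar patterns were those of the glycosyltransferase gene ABO (r = 0.69), DDO, D-aspartate oxidase (r = 0.67), and RPSA, a ribosomal protein that also acts as a laminin receptor (r = 0.67), all close to the 99th percentile of 0.61. No muscle gene was among them. In the same order r was 0.56, 0.61 and 0.48 within sham, and 0.81, 0.74 and 0.82 within OA.

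**Figure D3:**
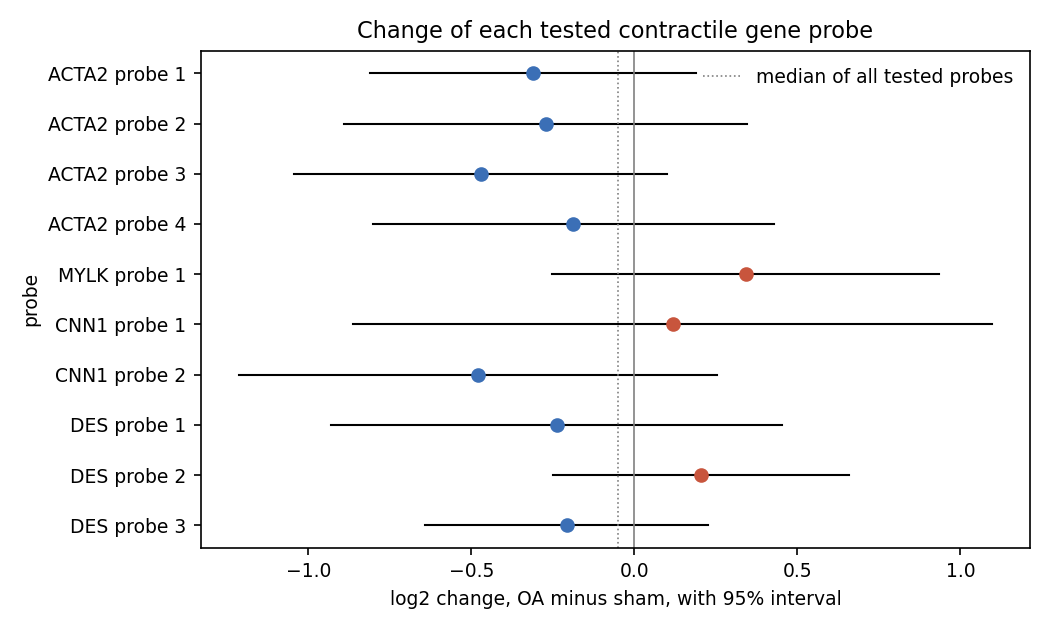
Change of each tested probe, OA minus sham, on the log2 scale with its 95% interval; the dotted line is the median of all tested probes at -0.05. All 10 intervals include 0, and the changes run from CNN1 probe 2 at -0.48 to MYLK at 0.34.

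No pair of contractile genes passed a test for rising and falling together from animal to animal. Of the 6 pairs among the brightest probes of ACTA2, MYLK, CNN1 and DES, each examined within sham and within OA (12 correlations, n = 7), none passed an exact permutation test after adjustment (lowest adjusted p 0.47 for Pearson's r and 0.29 for Spearman's rank correlation). The highest were between MYLK and CNN1 in sham, with r = 0.68 (exact p = 0.091, adjusted p = 0.47), Spearman's rank correlation 0.86 (exact p = 0.024, adjusted p = 0.29) and r = 0.37 without the 2 arrays farthest from the median. ACTA2 and CNN1 had r = 0.65 in sham (exact p = 0.10) and 0.52 in OA (exact p = 0.24), each with an adjusted p of 0.47 or more. ACTA2 and DES had r = 0.05 in sham and -0.43 in OA (exact p = 0.90 and 0.34).

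Ratios within an array do not depend on the scaling between arrays and were compared as well. ACTA2 over MYLK had the largest shift, from 2.12 ± 0.73 in sham to 1.46 ± 0.63 in OA (SD of the log2 ratio, n = 7), a difference of -0.65 with an exact permutation p of 0.095, and 0.57 after adjustment over the 6 ratios. The sham ratios ran from 1.30 to 3.10 and the OA ratios from 0.48 to 2.23, so the groups overlapped. MYLK over DES differed by 0.58 (exact p = 0.19) and the other 4 ratios by -0.43 to 0.36 (exact p from 0.34 to 0.89). The opposite signs of ACTA2 and MYLK were thus not separated from the spread between animals.

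The other genes of the contraction pathway were read from lists, and 0 of their tested members passed in either direction (limma, adjusted over 38818 probes; 3.23% of 2258 named genes passed). Of 21 listed thin and thick filament partners 5 carried a gene name and were tested, with a median change of 0.05. They were the essential myosin light chain gene MYL6 and the tropomyosin genes TPM1 to TPM4, whose products run along actin filaments. TPM1 stood at -0.30 ± 0.24 (limma adjusted p = 0.53), with 5 of its 21 probes positive. MYL6 stood at 0.12 ± 0.19 (limma adjusted p = 0.78), with 2 of its 4 probes positive.

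Among 8 tested of 24 listed genes of light chain phosphorylation and its reversal, 6 had a negative change and the median was -0.19. CAMK2G, a calmodulin-dependent kinase, stood at -0.39 ± 0.23 (adjusted p = 0.37). PPP1R14A, an inhibitor of myosin phosphatase that is abundant in smooth muscle, stood at 0.01 ± 0.24. PPP1CB, the catalytic subunit of that phosphatase, stood at -0.10 ± 0.22.

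Of 17 tested of 37 listed genes for calcium handling and for receptors that drive or relax smooth muscle, 9 had a negative change and the median was -0.19. ADRA1A, an alpha adrenergic receptor, had the smallest unadjusted p, at 0.70 ± 0.28 (unadjusted p = 0.025, limma adjusted p = 0.18), but was well above background on 6 of 7 sham and 3 of 7 OA arrays. HTR2B, a serotonin receptor, stood at -0.71 ± 0.36 (adjusted p = 0.29) and cleared the background on 2 of 7 OA arrays only, so the sizes of both rest partly on values at the background.

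Of 13 tested of 30 listed genes of the serum response factor, myocardin and transforming growth factor beta axis, 6 had a positive change and the median was -0.03. MEF2C, a transcription factor of muscle, stood at 0.46 ± 0.24 (limma adjusted p = 0.30) with 2 of its 3 probes positive. GATA6, a transcription factor of vascular smooth muscle, stood at -0.37 ± 0.32 (limma adjusted p = 0.55). MYOCD, the myocardin gene, stood at 0.24 ± 0.22 (adjusted p = 0.58) with both of its probes positive. TGFB1 stood at -0.22 ± 0.23 (adjusted p = 0.64) and CTGF, a matrix protein gene induced by it, at 0.08 ± 0.23 (adjusted p = 0.88).

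Cytoskeleton and adhesion genes, 8 tested of 32 listed, had a median change of 0.13. ITGB3, an integrin subunit, came closest to the threshold of all the pathway genes, at 0.61 ± 0.17 (limma adjusted p = 0.055) with both of its probes positive. PDLIM3, which binds alpha-actinin, stood at -0.43 ± 0.28 (limma adjusted p = 0.41) with 1 of its 4 probes positive. VCL, vinculin, which links actin to adhesion sites, stood at -0.14 ± 0.21 (limma adjusted p = 0.77) with 2 of its 4 probes positive.

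The myofibroblast matrix list had 7 tested of 17 listed genes and a median of 0.05. COL5A1, which encodes a fibrillar collagen of type V, stood at 0.68 ± 0.24 (adjusted p = 0.12) with 1 of its 3 probes positive. SPARC, a matricellular protein gene, stood at 0.25 ± 0.25 (adjusted p = 0.62) with 2 of its 7 probes positive. THY1, a surface marker of fibroblasts, stood at 0.15 ± 0.33 (adjusted p = 0.84).

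**Figure D4:**
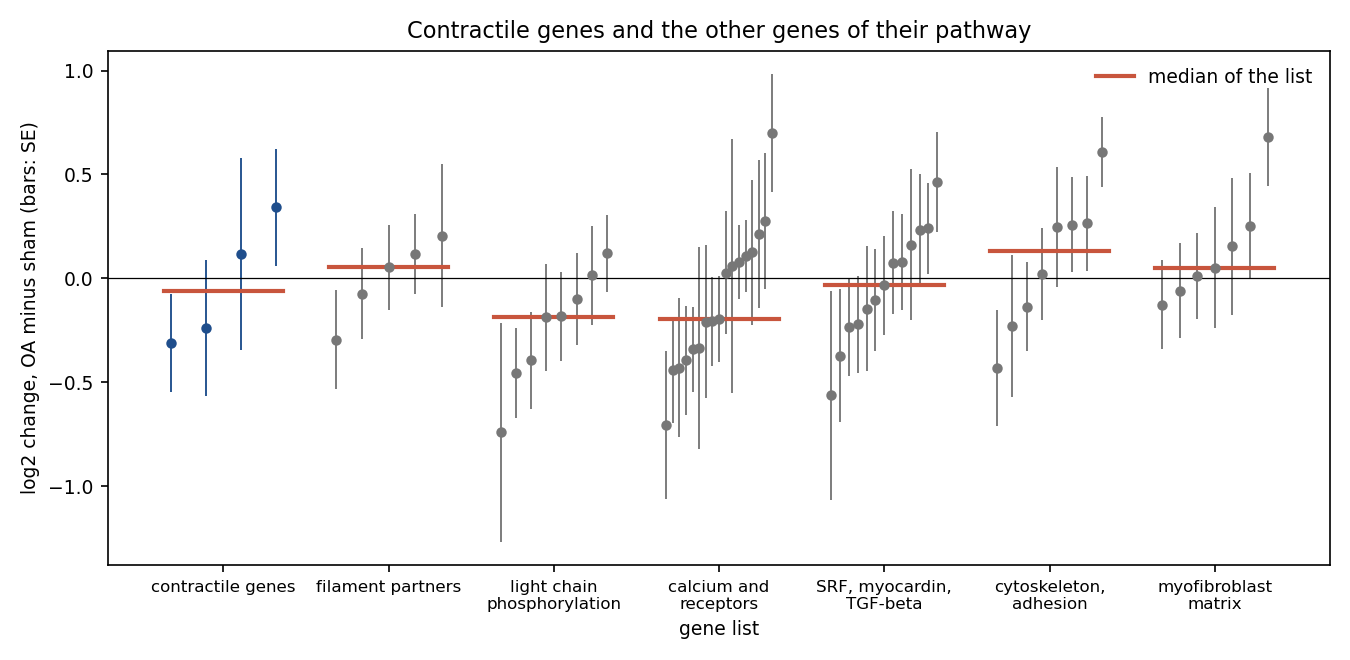
Change of the brightest probe of each gene (y axis, log2, OA minus sham; bars are the SE) for the contractile genes (blue) and 6 lists of their pathway (grey), sorted within each list; red lines are list medians. The medians of the 6 lists run from -0.19 to 0.13 and the contractile genes lie among the other genes.

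Markers of the cells that hold or surround contractile cells were read beside these values. The 3 tested pericyte markers, the mural cell gene RGS5 and the peptidase genes ANPEP and ENPEP, had changes of 0.05 ± 0.46, 0.41 ± 0.39 and 0.23 ± 0.33 (adjusted p from 0.59 to 0.97). In the same order, 1 of 2, 2 of 3 and 1 of 3 of their tested probes were positive. Of the 6 endothelial markers 0 passed, with a median of -0.18. PECAM1, an adhesion molecule of vessel lining, stood at -0.89 ± 0.42 (limma adjusted p = 0.26) with 0 of its 3 tested probes positive. CDH5, vascular endothelial cadherin, stood at 0.49 ± 0.31 (limma adjusted p = 0.41) with 1 of its 2 tested probes positive. The mean level of the endothelial list ran from -0.01 to 1.50 on the sham arrays and from 0.01 to 1.66 on the OA arrays, so these ranges overlapped as those of the contractile genes did.

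**Figure D5:**
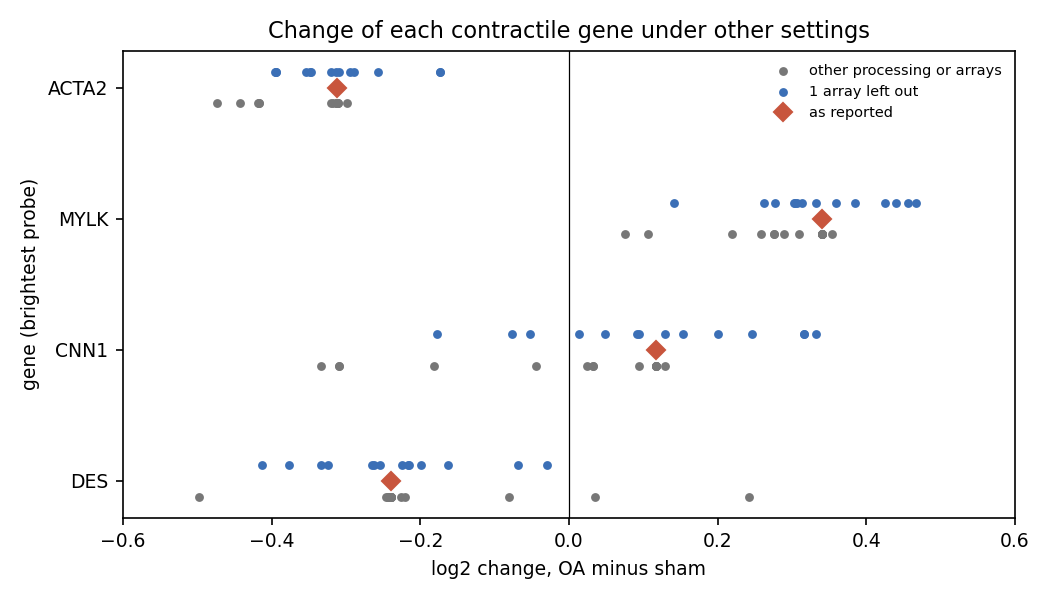
Change of the brightest probe of each contractile gene (x axis, log2, OA minus sham) as reported (red diamond), with other processing or arrays (grey) and with 1 array left out (blue). ACTA2 stays between -0.47 and -0.17 and MYLK between 0.08 and 0.47, while CNN1 and DES have values on both sides of 0.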

How the data were processed

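Spot intensity values in the deposited scanner files came from Agilent Feature Extraction (version 11.0.1.1), per the file headers, which subtracts background and detrends within an array; the deposited intensity values are not normalized between arrays. The deposited series table holds log2 values whose columns share their median (5.99) and follow the same array's signal. No source used here says how the authors made these log2 values, and the table served as an alternative. For the brightest contractile probes it gave nearly the same changes as quantile normalization. They were -0.418 and -0.417 for ACTA2, and with both 0.276 for MYLK and -0.243 for DES. These alternatives are therefore not separate support. Each processed signal was divided by the 75th percentile of its array over probes and taken to log2, with 82 marked spots set missing. The test took 38818 probes, those that 7 or more of the 14 arrays showed well above background. Groups were compared with limma 3.58.1 in R 4.3.3 (lmFit, eBayes, two-sided), adjusted over all tested probes; the fit was tested on simulated data. The number of arrays limits the precision. Gene names came from RefSeq accessions matched, without version, to the Sscrofa11.1 gene table (5461 of 5779 probes with such an accession, 2389 genes); the brightest probe over all arrays stood for a gene, which numbers probes here. No coordinates are given because no source used here gives the build of the array design. Slides were taken from the scan identifier and scan days from the scan date. Correlations and ratios used exact permutation tests (Python 3.11.15, scipy 1.17.1), two-sided by absolute value.

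The genes, the lists and the tests were chosen with earlier results of these data known. Named genes were every probe of the contractile genes, from each list up to 4 genes past the threshold or the 2 with the smallest p, and the 3 genes most like each contractile gene; further list genes are named for their role and were chosen after their values were seen. For the light chain phosphorylation list 1 gene that the rule names is not reported here. The adipocyte and macrophage lists appear in the closing section. The alternatives were other normalizations, normexp background correction (offset 50, on the median spot and background signals, since these are the columns used here), other filters, variances, blocks and arrays.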

Additional observations from a re-analysis of the deposited data

How the results depend on the processing

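Over 28 alternatives the count of called contractile probes was 0 in all but normexp background correction, which gave 3: ACTA2 probe 3 at -0.64 (limma adjusted p = 0.037), DES probe 2 at 0.71 (adjusted p = 0.0019) and DES probe 3, reversed to 0.70 (adjusted p = 0.0021). That setting called 47.3% of all tested probes, 17573 higher and 796 lower, and moved the median of all tested probes to 0.33. The count is not above that pooled share, and the DES values are read relative to that median. For the lower ACTA2 probe 3 the share, mostly of higher probes, is no like background, and the other ACTA2 probes did not pass. With normexp CNN1 probe 2 also reversed, to 0.27, and the brightest CNN1 probe to -0.044. ACTA2 and MYLK kept their sign under all alternatives, although keeping marked spots could not move them, since 0 spots of these probes were marked, and averaging probes could not move MYLK, which has 1. CNN1 reversed to -0.31 with array quality weights, -0.18 as the mean of its probes, -0.31 without slides 3 and 4 and -0.33 without slide 4; leaving out 1 array gave -0.18 to 0.33. DES reversed to 0.24 without slides 3 and 4 and 0.035 without slide 4 (DES probe 2 to -0.085); leaving out 1 array gave -0.41 to -0.03. The alternative without slide 4 was chosen after seeing the data; the cause of these reversals was not tested. Leaving out 1 array gave -0.40 to -0.17 for ACTA2, 0.14 to 0.47 for MYLK and a count of 0 throughout. With quantile normalization and with the authors' table the correlation of ACTA2 with MYLK in OA turned to 0.03, that of ACTA2 with DES in sham to -0.08 and that of MYLK with CNN1 in OA to -0.05 (-0.06 with normexp), none past the threshold. Over all probes 1446 were called, and 18 with the slide as a random block. With the replicate number as a block 0 contractile probes were called and ACTA2 stood at -0.31 (adjusted p = 0.46); same-numbered animals of the groups did not deviate together (correlations of -0.19 to 0.27, over 0.1 in 2 of 7 pairs). Dim probes limit DES most, since probes 2 to 4 lie near the background.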

Other observations

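Lists of other cell types were read. Of 12 tested adipocyte markers 1 rose, LEP, the leptin gene, at 0.74 ± 0.16 (SE, n = 7 per group; log2, limma adjusted p = 0.021), with 1 of its 2 probes positive, beside 3.23% called of 2258 named genes. The list's median change was 0.64; DGAT2, an enzyme of triglyceride synthesis, stood at 0.58 ± 0.23 (adjusted p = 0.17). The mean level of the list ran from -0.35 to 0.30 on the sham arrays and from -0.30 to 1.35 on the OA arrays. Of 5 macrophage markers 0 passed, with a median of 0.27; CD14, a receptor for bacterial lipopolysaccharide, stood at -0.45 ± 0.24 and LYZ, lysozyme, at 0.89 ± 0.68 (adjusted p = 0.33 and 0.50).

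Of the 20 sets of 7 values that the tested contractile probes gave within sham and within OA, 0 held an array whose gap to its nearest neighbour passed Dixon's 95% critical value.

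Within-array ratios between ACTA2 probes also showed small shifts. ACTA2 probe 2 over probe 3 stood at 0.62 ± 0.10 in sham and 0.82 ± 0.16 in OA (SD of the log2 ratio, n = 7; exact permutation p = 0.019, adjusted over 10 probe pairs 0.10), a difference of 0.20 that did not pass after adjustment.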
